A study of Mus musculus with 28 samples.

Results

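The genes described here are the 4 receptor tyrosine kinases of the ErbB family (Egfr, Erbb2, Erbb3 and Erbb4) and the 4 neuregulin genes (Nrg1, Nrg2, Nrg3 and Nrg4). These 8 genes were chosen by name. They were read from counts per gene in 28 single mouse cells, in which 23453 genes had exonic counts listed and 20422 genes had intronic counts listed, and all 8 were present in both tables. The sample labels name 12 neurons and 8 astrocytes of cortex from primary culture (genotype C57/BL6, each cell taken with a pipette) and 8 interneurons of cortex from acute slices (genotype C57/BL6/N, taken with a patch clamp pipette). No treatment or engineered allele is given, and no label says which cells share an animal or a culture. For the cultured cells the growth text describes the perfusion of a 3-month old male, whereas the methods of the study describe cultures grown from embryos of both sexes, so their age is unclear here.

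The 28 columns are headed by codes, none of which could be tied to a labelled sample. They were therefore read as 1 pooled set of cells in 3 blocks of codes: BRP564 and BRP566 to BRP572 (8 cells, called the 8-cell BRP block), the other BRP codes (12 cells, called the 12-cell BRP block) and the codes beginning with F (8 cells, called the F block). The block sizes match those of the labelled astrocytes, neurons and interneurons, but the identities are presumed from size and markers only. For that reason no test between blocks was made, and values are given per cell or as lowest, median and highest of a block. According to the labels, the cultured cells and the slice interneurons also differed in library kit and sequencer. For the F block, cell type cannot be told apart from library preparation, slice or culture, genotype label and way of taking cells.

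Neuregulins are growth factors with an EGF-like domain, mostly made as membrane-bound precursors and released or exposed by proteases such as Bace1 and Adam17. They bind Erbb3 and Erbb4. Erbb2 has no known soluble ligand and acts as a partner in receptor pairs, Erbb3 has little kinase activity of its own, and Egfr is bound by EGF and its relatives, such as heparin-binding EGF (Hbegf), rather than by the neuregulins. In the cortex, Erbb4 is best known from GABAergic interneurons, where neuregulins from neighbouring neurons act on their synapses, and Egfr and Erbb2 are found in glia and in progenitors.

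Exonic totals ranged from 838343 to 26770944 counts per cell and intronic totals from 831965 to 11098985. Cells of the 8-cell BRP block had 10985 to 12815 genes with an exonic count, those of the 12-cell BRP block 9869 to 12564 and those of the F block 2338 to 7218. The intronic share of a cell's counts had a median of 8.75% in the 8-cell BRP block, 15.7% in the 12-cell BRP block and 50.4% in the F block. Levels are given as CPM, a gene's count per 1000000 counts of the same cell's exonic or intronic total. A count of 0 in a cell allows up to 3 counts of its total, and such limits cover counting error only.

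The presumed identities were set beside marker genes, and single cells departed from them. The summed exonic level of the 8 astrocyte markers was 1522 to 6174 CPM in the 8-cell BRP block (median 2957), 191 to 2463 CPM in the 12-cell BRP block (median 950) and 0 to 4352 CPM in the F block (median 100.2). Of the defining ones, Aqp4, a water channel of astrocytes, was 652 to 2062 CPM in the 8-cell BRP block and had a median of 0.981 CPM in the 12-cell BRP block. Slc1a2, a glutamate transporter on the same list, had the opposite order, with medians of 192 and 804 CPM in these blocks. The 6 neuron markers summed to 299 to 801 CPM in the 8-cell BRP block, 4737 to 8469 CPM in the 12-cell BRP block and 1608 to 16746 CPM in the F block. The 8 markers of GABAergic interneurons summed to 565 to 11886 CPM in the F block (median 4531). In the 8-cell and 12-cell BRP blocks their medians were 17.8 and 39.1 CPM and their highest sums 190 and 3110 CPM. Gad1 and Slc32a1 led in the F block, with medians of 2754 and 531 CPM. Other genes of the list went the other way. Gad2 had a median of 36.3 CPM in the 12-cell BRP block against 10.2 CPM in the F block. Pvalb had a median of 4.02 CPM in the 8-cell BRP block against 0 in the F block. Sst was read in 6 of 12 cells of the 12-cell BRP block and in 2 of 8 F cells. The 8-cell BRP block also carried markers of the oligodendrocyte lineage (571 to 1314 CPM for 7 genes), led by Olig1 and Olig2, while Mog, which marks mature oligodendrocytes, was at 0 in all 8 cells. The same 7 genes had medians of 27.3 and 0.842 CPM in the 12-cell BRP and F blocks and reached 1269 and 3387 CPM there. The 4 markers of glutamatergic neurons reached 1057 CPM in the 12-cell BRP block, 144 CPM in the 8-cell BRP block and 4.92 CPM in the F block. The 4 microglial markers summed to at most 13.2 and 46.6 CPM in the BRP blocks and 2093 CPM in the F block. The F value rested on Csf1r alone (2093 CPM). In the F block C1qa was at 0, and C1qb and Cx3cr1 reached 0.542 and 4.73 CPM. In the 12-cell BRP block Cx3cr1 alone reached 46.1 CPM. The 3 endothelial markers reached at most 19.7 CPM in any cell, with Cldn5 at 0 in each of the 28.

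A few cells stood apart. BRP528, in the 12-cell BRP block, had 22808 exonic counts of Gad1, a GABA-synthesising enzyme, together with 2844 of Aqp4 and 9129 of Mbp. BRP529, in the same block, had 9347 counts of Aqp4 and 18569 of Olig1. F7 had 9493 counts of Gad1 but also 27904 of Olig1 and 37805 of the glutamate transporter Slc1a2. Of the other astrocyte markers, F7 had 12 counts of Gfap and 8 of Slc1a3. Aqp4, Aldh1l1, S100b, Gja1 and Aldoc were at 0 in F7. Of the 6 neuron markers, F7 had counts of 5, led by Map2 (10879 counts), and Rbfox3, which was read in 4 of the 8 F cells, was at 0. F11 and F12 had a correlation of log2(exonic CPM + 1) of 0.954, whereas the other 27 pairs of F cells lay between 0.190 and 0.489. Whether F11 and F12 come from 1 cell was not tested.

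In exons, the receptors differed between blocks most clearly in Egfr. In introns, Erbb4 separated the F block from the 12-cell BRP block, as given further below. Egfr, the receptor of EGF and its relatives, was read in 7 of 8 cells of the 8-cell BRP block with at least 53 exonic counts each, and BRP568 had 0. Its level there was 0 to 20.9 CPM with a median of 7.83 CPM, and the highest value was in BRP566 (328 counts). In the 12-cell BRP block, BRP538 alone had 277 counts (12.4 CPM), 4 cells had 1 count and 7 had 0. In the F block, F12 had 1 count and the other 7 cells had 0. The exonic ranges of the BRP blocks therefore overlapped through 2 cells, BRP568 at 0 and BRP538 at 12.4 CPM. After every cell was thinned to 800000 exonic counts, Egfr was still read in 7 of 8 cells of the 8-cell BRP block, in 1 of 12 and in 0 of 8 F cells, the same order as without thinning. Egfr lies at chr11:16752203-16918158 (GRCm38, plus strand), with 155 kb of intron.

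The Egfr introns gave a like order. The intronic level was 5.81 to 667 CPM in the 8-cell BRP block (median 69.8 CPM), 0.486 to 628 CPM in the 12-cell BRP block (median 5.90 CPM) and 0 to 2.77 CPM in the F block (median 0.425 CPM). Without F12 the F block reached 0.951 CPM with a median of 0.146 CPM, and its median was also 0.146 CPM without F7. All cells of the 8-cell BRP block were above all 8 F cells, and the BRP blocks overlapped. BRP535, with 1419 intronic counts, was the highest cell of the 12-cell BRP block and had no exonic Egfr count. BRP538, which held nearly all exonic counts of that block, had 29 intronic counts.

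Erbb2, the receptor without a soluble ligand of its own, was read in 5 of 8 cells of the 8-cell BRP block, with 60 counts in BRP567, 42 in BRP566, 11 in BRP570, 4 in BRP564 and 2 in BRP572. The level was at most 3.70 CPM with a median of 0.178 CPM. It was at 0 in all cells of the 12-cell BRP block, whose 255660445 exonic counts together allow a level of up to 0.0117 CPM. F7 had 12 counts (1.38 CPM), and the other 7 F cells had 0, which over their 42463268 counts allows up to 0.0706 CPM. Without F7, Erbb2 exons were thus read in the 8-cell BRP block only. In intronic counts, BRP571 had 103, and every other cell had 3 or fewer. Erbb2 lies at chr11:98412470-98437716 on the plus strand and overlaps Mien1 on the other strand. Mien1 had 33076 exonic counts over the 28 cells, and how the authors treated reads in such an overlap is not given in the sources used here.

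Erbb3, the neuregulin receptor of Schwann cells and of the oligodendrocyte lineage, had 2 exonic counts in all, 1 in BRP569 and 1 in BRP570. Its exonic level over the 28 cells was 0.00452 CPM, below the 0.00679 CPM that a count of 0 would allow. The intronic table held 1573 counts, of which F7 had 1522 (145 CPM). No other cell had more than 6. F7 is the cell with the high Olig1 count described above, while Sox10 and Olig2, which define the oligodendrocyte lineage, were at 0 in its exons. The part of other cells' RNA in the Erbb3 signal of F7 was not tested. Erbb3 is a short gene at chr10:128567523-128589652 (minus strand), with 16.1 kb of intron.

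Erbb4, the neuregulin receptor of interneurons, was nearly absent from exonic counts and among the most abundant genes of the intronic table. Exonic counts numbered 37 over the 28 cells: 17 in BRP528, 1 to 3 in 5 other cells of the 12-cell BRP block, 11 in F7, 1 each in F2 and F11, and 0 in the 8-cell BRP block. The exonic level was at most 0.847 CPM in the 12-cell BRP block and 1.27 CPM in the F block, and the 135314191 counts of the 8-cell BRP block allow up to 0.0222 CPM. BRP528 and F7, which held most of these counts, carried Gad1 at 1136 and 1092 CPM. BRP528 also had the Aqp4 and Mbp counts given above, and F7 those of Olig1 and Slc1a2. The median Gad1 level of the F block was higher, at 2754 CPM, and the 7 F cells other than F7 had 0 or 1 exonic Erbb4 count. Without BRP528 and BRP529 the highest level of the 12-cell BRP block was 0.146 CPM, and without F7 that of the F block was 0.228 CPM.

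**Figure D1:**
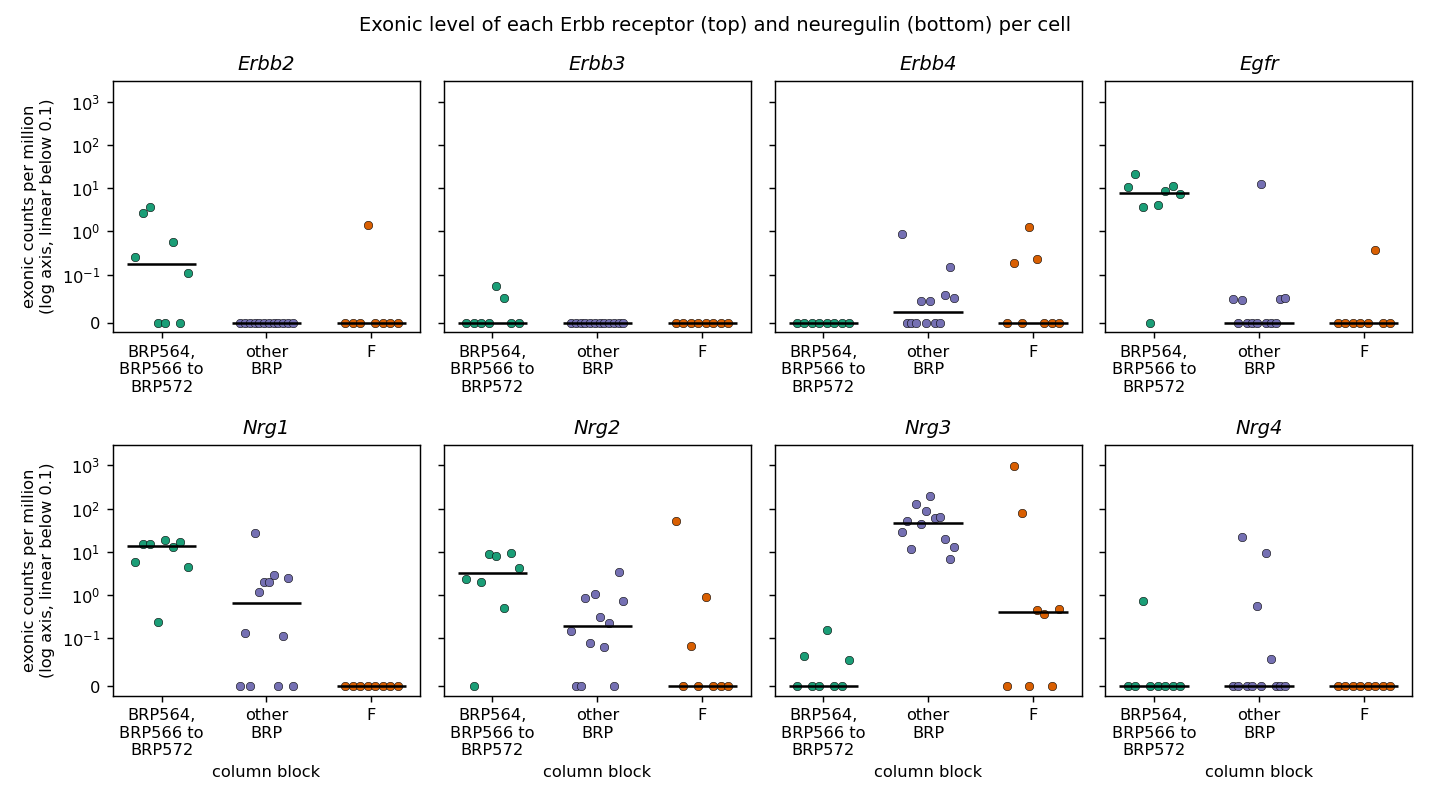
Exonic level of each ErbB receptor (top row) and neuregulin (bottom row) in CPM (scaled to the cell's exonic total), on a log axis that is linear below 0.1, with 1 point per cell, cells parted by column block and a bar at the block's median. Egfr and Nrg1 sit highest in the 8-cell BRP block (medians 7.83 and 13.9 CPM), Nrg3 is above 6 CPM in each of the 12 other BRP cells, and Erbb3 and Erbb4 lie at or near 0 in all blocks.

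The Erbb4 introns held 675474 counts. In the F block the counts were 3427 in F1, 116219 in F2, 120024 in F6, 364887 in F7, 17991 in F11, 12600 in F12, 3130 in F16 and 5317 in F24. As a level this was 1474 to 34701 CPM with a median of 4829 CPM, and in F7 the gene took 3.47% of all intronic counts. It ranked 3, 4 and 2 among the genes of F2, F6 and F7, and no lower than 115 in any F cell. By the mean over the 8 F cells, 11082 CPM, it ranked 5 of 20422 genes, and without F7 it ranked 9 with 7708 CPM.

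Every F cell was above every cell of the 12-cell BRP block in intronic Erbb4. The latter ranged from 9.504 to 884 CPM with a median of 65.6 CPM, and its highest cell was BRP528, the cell with the high Gad1 count, followed by BRP535 (463 CPM). Of 9449 genes with enough intronic counts in these 20 cells, 0.0423% (4 genes) had every F cell above every cell of the 12-cell BRP block, and Erbb4 was 1 of them. The other direction held for 0.762% of the genes and for none of the 6 members measured. Without BRP528, BRP529, F7 and F12, Erbb4 still did not overlap between the blocks, and the share of genes was 0.0467%. In the 8-cell BRP block the level was 29.5 to 4603 CPM with a median of 1208 CPM, which overlapped both other blocks. There BRP566 was highest (6354 counts) and BRP568 lowest (35 counts).

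Erbb4 is a very long gene, at chr1:68032186-69108059 (minus strand), with 1064 kb of intron and 12.4 kb of exon, so a high intronic count is spread over a long stretch. Per kb of intron, its mean level in the F block still exceeded that of 99.0% of 17720 genes, against 84.6% in the 8-cell BRP block and 54.1% in the 12-cell BRP block. The annotation places 8 further genes within its span on the same strand, and none of them has a row in the tables.

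Among the ligands, Nrg1 was read most evenly in the 8-cell BRP block. Nrg1 is the neuregulin with the most isoforms and is known for its part in myelination and in the cortex. All 8 cells of the 8-cell BRP block had exonic counts: 91, 236, 247, 4, 243, 252, 338 and 82 in the order of the codes. The level was 0.243 to 18.7 CPM with a median of 13.9 CPM, and BRP568 was again the low cell. The 12-cell BRP block ranged from 0 to 27.1 CPM with a median of 0.653 CPM; 4 cells had 0 and BRP535 had 577 counts, the highest of the 28 cells. BRP535 alone carried 69.9% of that block's Nrg1 counts, so its pooled level of 3.23 CPM rested on that cell. All 8 F cells had 0, and their 51154906 exonic counts allow up to 0.0586 CPM over the block. A single F cell allows more, since 3 counts in F16, the shallowest, would make 3.58 CPM.

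Thinned to 800000 counts, Nrg1 was read in 8 of 8, 4 of 12 and 0 of 8 cells of the blocks in the same order. Without thinning the numbers were 8, 8 and 0. In the introns, Nrg1 was 32.6 to 2340 CPM in the 8-cell BRP block (median 299 CPM), 0.204 to 329 CPM in the 12-cell BRP block (median 12.6 CPM) and 0 to 5.72 CPM in the F block (median 1.61 CPM). Without BRP528 and BRP529 the median of the 12-cell BRP block was 1.56 CPM in exons and 23.2 CPM in introns. BRP568, with 4 exonic counts, had the most intronic counts of its block, 2772. In the 12-cell BRP block, BRP540 had 3647 intronic counts and no exonic one, while BRP535 had 577 exonic and 9 intronic counts, so the cells with most exonic and most intronic Nrg1 were not the same. Nrg1 lies at chr8:31814551-32884029 (minus strand), spans 1069 kb and has 18 annotated transcripts, which gene counts cannot tell apart.

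Nrg2, a close relative of Nrg1, was read in 7 of 8 cells of the 8-cell BRP block, each with 10 counts or more, and at 0 in BRP566. The level there was 0 to 9.38 CPM with a median of 3.29 CPM. The 12-cell BRP block held 0 to 3.36 CPM with a median of 0.189 CPM, and 4 of its cells had 10 counts or more. In the F block, F1 had 759 counts (51.2 CPM, the highest of all cells), F11 had 4, F6 had 1 and 5 cells had 0. F1 carried 99.3% of the Nrg2 counts of its block, and its intronic count was 1. The Nrg2 introns were 113 to 607 CPM in the 8-cell BRP block (median 322 CPM), 1.35 to 163 CPM in the 12-cell BRP block (median 10.2 CPM) and 0.705 to 8.87 CPM in the F block (median 1.77 CPM). Of the 12-cell BRP block, BRP540, with 1807 intronic counts, was the only cell inside the range of the 8-cell BRP block. Nrg2 lies on the minus strand of chromosome 18 and spans 180 kb.

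In the intronic comparison of the 8-cell BRP block with the F block, 3 of the 6 members measured (Egfr, Nrg1 and Nrg2) had every cell of the former above every F cell. The share among all 7537 genes measured was 5.2%, and the same 3 genes were called without F7 and F12. A gene was measured if at least 3 of the cells had at least 10 counts. Egfr, Nrg1 and Nrg2 had 10 or more intronic counts in 7, 8 and 8 cells of the 8-cell BRP block. In the F block they had them in 1, 2 and 2 cells. The 3 genes thus entered through the block where they are high, and their number is a description only. The other direction held for 0.0663% of genes and for no member, Erbb4 included. The presumed cell type, the library preparation and the high intronic share of the F cells' counts move together with this difference. So do slice or culture, genotype label and the way of taking cells. The parts of all these in the difference cannot be told apart. Intronic totals of the F cells had a median of 3.73e+06 counts and a lowest value of 831965 (F1). In the 8-cell BRP block the median was 1.52e+06 and the lowest value 969661. The part of depth in the difference was not tested.

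Nrg3, a ligand of Erbb4 expressed largely in neurons, was the most abundant member in exons. The 12-cell BRP block had 572, 1121, 242, 2725, 966, 2403, 4417, 1466, 1086, 339, 136 and 253 counts in the order of the codes, that is 6.62 to 198 CPM with a median of 46.8 CPM. The 8-cell BRP block had 4 counts in all, 2 in BRP569 and 1 each in BRP566 and BRP572, and its highest level was 0.154 CPM. Each of the 12 cells was above each of the 8. This held for 3.14% of 13139 genes in that direction and for 3.98% in the other. Nrg3 was the only 1 of 6 members measured to separate these blocks in exons. It had 10 or more exonic counts in 12 of 12 cells of the 12-cell BRP block and in 0 of 8 of the other. Nrg3 thus entered the comparison only through the block where it is high, and its separation is a description only. Without BRP528, BRP529, F7 and F12 it separated them too, beside 4.81% of genes. Thinned to 800000 counts, Nrg3 was read in 12 of 12 cells and in 0 of 8.

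The F block was divided in Nrg3 exons. F2 had 5200 counts (939 CPM, the highest value of any member in exons) and F6 had 945 (78.5 CPM), while the other 6 cells had 0 to 2 counts. F2 held 84.6% of the block's counts, so the block's pooled level of 120.2 CPM rests on that cell, and the median was 0.412 CPM. Nrg3 introns gave another picture, since all 8 F cells had counts: 5043 in F1, 44233 in F2, 19258 in F6, 32196 in F7, 199 in F11, 269 in F12, 668 in F16 and 17530 in F24. In F1, F7 and F24 the gene had 5043 or more intronic counts and at most 1 exonic count. The intronic level of the F block was 51.6 to 7233 CPM with a median of 2934 CPM.

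In the 12-cell BRP block, Nrg3 introns were 357 to 12988 CPM with a median of 5481 CPM. BRP540 was highest (144151 counts), and BRP528, the Gad1 cell, was lowest. By mean intronic level Nrg3 ranked 8 of 20422 genes in this block, 45 in the F block and 413 in the 8-cell BRP block, where it was 41.8 to 1557 CPM. Per kb of intron it exceeded 98.1%, 96.5% and 63.5% of genes in these blocks. Nrg3 lies at chr14:38368952-39473088 (minus strand) and has 1097 kb of intron.

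**Figure D2:**
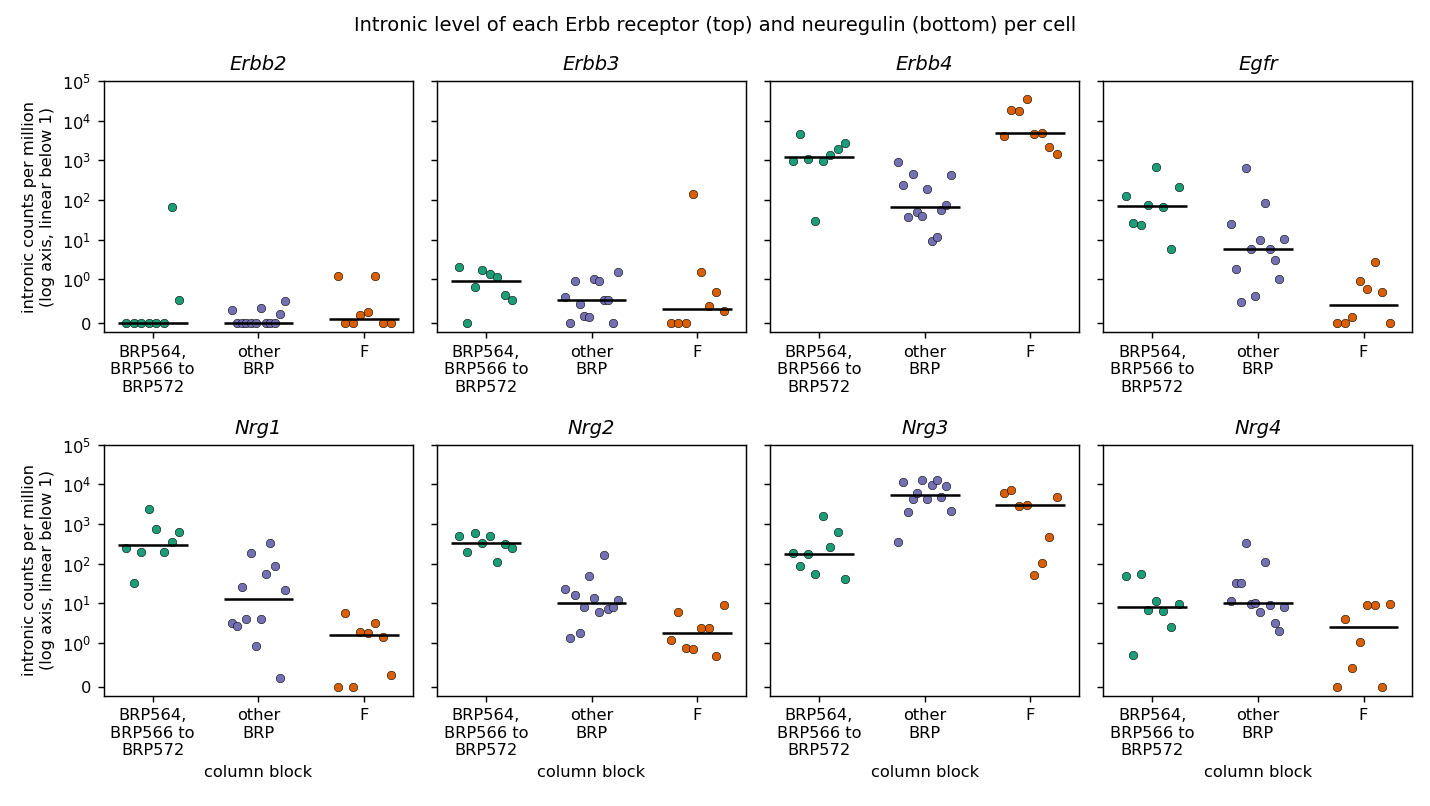
Intronic level of each ErbB receptor (top row) and neuregulin (bottom row) in CPM (scaled to the cell's intronic total), on a log axis that is linear below 1, with 1 point per cell, cells parted by column block and a bar at the block's median. Erbb4 is between 1474 and 34701 CPM in the F cells, all above the 12-cell BRP block, Nrg3 is highest in the 12-cell BRP block, and Nrg1, Nrg2 and Egfr are lowest in the F cells.

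Nrg4, the neuregulin best known as a factor secreted by fat tissue, was read in few cells. Exonic counts were 473 in BRP534, 234 in BRP539, 15 in BRP537, 12 in BRP567 and 1 in BRP540, and the other 23 cells had 0. The highest level was 22.5 CPM, and BRP534 carried 64.4% of all counts. Introns were read in 26 of 28 cells, with medians of 8.08, 9.95 and 2.57 CPM in the 8-cell BRP, 12-cell BRP and F blocks and ranges that overlapped among all 3. The F median was 1.05 CPM without F12 and 4.09 CPM without F7. BRP535 had the most intronic counts, 757, and no exonic count. Nrg4 lies at chr9:55220222-55326844 (minus strand) and overlaps Fbxo22, which had 12694 exonic counts. Without strand in the counting, reads from the overlap cannot be assigned to 1 of them.

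Ordered by exonic level per kb of exon, pooled over the 28 cells, Nrg3 came first with 7.26 CPM per kb, then Nrg2 (1.08), Nrg1 (0.507), Egfr (0.281), Nrg4 (0.274), Erbb2 (0.0569), Erbb4 (0.00677) and Erbb3 (0.000752). Egfr and Nrg4 were close neighbours in this order. A single cell, F1, held 50.5% of the Nrg2 counts. Within the 8-cell BRP block the median levels per kb were 1.34 for Nrg1, 1.05 for Nrg2 and 0.691 for Egfr, with ranges over the cells that overlapped. In the 12-cell BRP block Nrg3 stood at a median of 6.87 CPM per kb, with Nrg1 (0.0630) and Nrg2 (0.0602) next. The neuregulin receptors stood low in both blocks, with median levels of 0 for Erbb3 in each, 0 for Erbb4 in the 8-cell BRP block and 0.00181 CPM per kb for Erbb4 in the 12-cell BRP block.

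The members differed widely in how their counts were split between exons and introns. Over the 28 cells, introns held 99.9945% of Erbb4 counts (Wilson 95% interval 99.9925 to 99.996), 99.9% of Erbb3, 96.5% of Nrg3, 84.3% of Nrg1, 82.7% of Nrg2, 75.6% of Nrg4, 74.6% of Egfr and 47.2% of Erbb2 counts. The median over 13110 genes with at least 1000 counts was 10.02%. Some genes with many exonic counts, such as Slc1a2, Gad1 and Snap25, had 0 intronic counts in every block. Snap25 had 554206 exonic counts in the 12-cell BRP block. Such genes enter this median, and whether their introns were counted at all was not tested. Long genes have more intron to be counted, and among the 205 genes with at least 500 kb of intron the median was 87.8%, so Nrg1 lay below it and Nrg3 above it. Erbb4 exceeded 99.0% of these long genes.

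The split also depended on the block. In the F block alone the median of 176 long genes was 99.1%, and there Erbb4, at 99.998%, exceeded 90.3% of them while Nrg3, at 95.1%, exceeded 34.7%. In the 8-cell BRP block all 23358 Erbb4 counts were intronic. In the 12-cell BRP block, with 24 exonic and 8521 intronic counts, the share was 99.7%, above 90.6% of 203 long genes. Erbb4 exons were therefore scarce beside its introns in each block. Nrg2 had the opposite split in the F block, where F1 brought the intronic share to 11.7%.

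**Figure D3:**
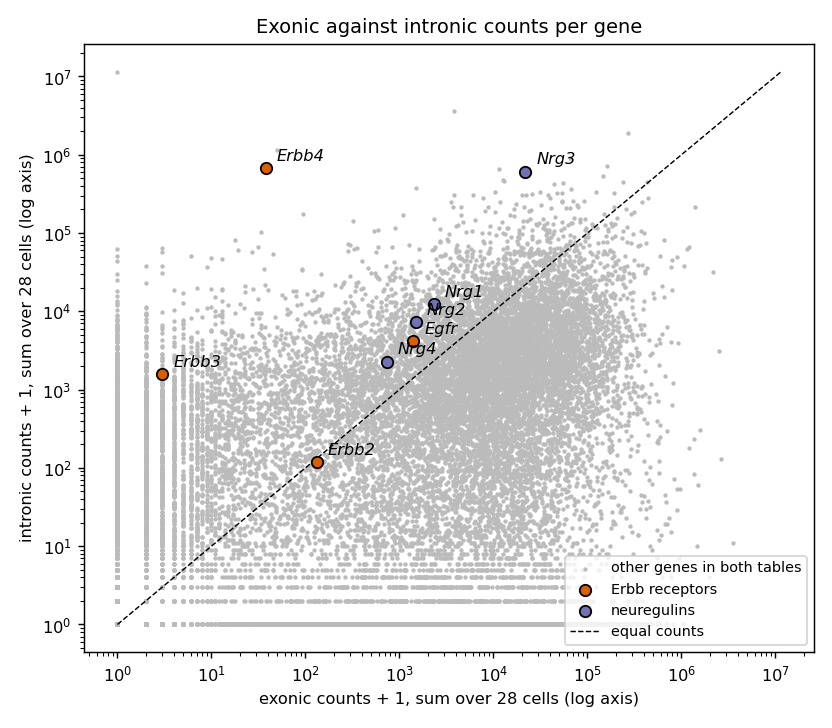
Exonic counts + 1 against intronic counts + 1 per gene, each summed over the 28 cells, on log axes, with the ErbB receptors in orange, the neuregulins in purple, other genes in grey and a dashed line of equal counts. Erbb4 stands far above the line with 37 exonic and 675474 intronic counts, Nrg3 has the most exonic counts of the members (21879), and Erbb2 lies close to the line.

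Ligands and receptors were also counted within the same cell. In the 8-cell BRP block, 7 of 8 cells had both Nrg1 and Egfr, each with 10 exonic counts or more, and the 5 cells with an Erbb2 count all had Egfr and Nrg1 counts. In the 12-cell BRP block, 6 of 12 cells had counts of both Nrg3 and Erbb4, but BRP528 was the only 1 with 10 or more of each. In 8 of these 12 cells Nrg1 and Nrg3 were both read, in 6 of them with 10 counts or more of each. In the F block, F2 and F11 had both Nrg3 and Erbb4 exonic counts, with 1 Erbb4 count each. F7 was the single cell with both Erbb2 and Erbb4 exonic counts. Exonic counts were read for 2 to 5 of the 8 members in each BRP cell and for 0 to 3 in the F cells.

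Of 11105 genes with at least 10 exonic counts in at least 8 cells, the ones most like Egfr over the 28 cells were Eda2r (Spearman's rho 0.849) and Gpr126 (0.794). For Nrg1 they were Pts (0.868) and Mlec (0.863), for Nrg2 Pomt1 (0.869) and Fndc3b (0.795), and for Nrg3 Ppp2r2c (0.863) and Kcnh1 (0.852). Among the members themselves, Nrg1 had a rho of 0.526 with Egfr and 0.474 with Nrg2, and Nrg3 had -0.340 with Egfr. These values describe 28 cells that share blocks, library preparations and depths, and Erbb2, Erbb3, Erbb4 and Nrg4 were read in too few cells to be included.

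The pathway around the members was described with 31 genes, all present in the exonic table, of which 29 had enough counts in the 20 BRP cells to be compared. Without overlap between the BRP blocks, 2 of the 29 were higher in the 8-cell BRP block (Lrig1 and Shc1, beside 3.98% of all genes) and 1 in the 12-cell BRP block (Tmeff1, beside 3.14%). Lrig1, which promotes the removal of ErbB receptors from the cell surface, was 12.0 to 84.9 CPM in the 8-cell BRP block and 0 to 9.71 CPM in the 12-cell BRP block. Shc1, an adaptor of activated ErbB receptors, was 10.1 to 37.5 CPM and 0 to 5.48 CPM. Tmeff1, a membrane protein with an EGF-like domain, was 0 to 62.5 CPM and 68.8 to 501 CPM. Without BRP528 and BRP529, Gab1 separated as well in the first direction, beside 6.28% of all genes, and Dlg4 in the second, beside 4.81%.

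The other ligands of the EGF family were led by Hbegf, which binds Egfr and Erbb4. It was read in all 20 BRP cells, at 85.9 to 1029 CPM in the 8-cell BRP block (median 582 CPM) and at 1.12 to 112 CPM in the 12-cell BRP block (median 22.3 CPM), and the ranges overlapped only in BRP569 (85.9 CPM), BRP528 (93.6 CPM) and BRP543 (112 CPM). F1 had 218 CPM, F11 had 1.14 CPM and the other 6 F cells had 0. BRP568, the only cell of the 8-cell BRP block without exonic Egfr counts, had the highest Hbegf level. It had 87 intronic Egfr counts (73.4 CPM). Areg, another ligand of Egfr, was at 0 in the 8-cell BRP block and in the F block and was read in 4 of 12 cells of the 12-cell BRP block, up to 101 CPM in BRP537. Btc, which binds Egfr and Erbb4, reached 18.2 CPM in BRP564 and 11.4 CPM in BRP570. Egf itself was at most 3.01 CPM, Tgfa reached 27.3 CPM in the 12-cell BRP block, Ereg reached 2.10 CPM, and Epgn had 2 exonic counts in all.

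Of the 4 proteases that cut neuregulin precursors, Bace1 and Adam10 were read in all BRP cells, Adam17 in all but 1 and Adam19 in 5 of 8 and 11 of 12 cells of the BRP blocks. Bace1 had medians of 37.2 and 46.8 CPM, Adam10 of 112 and 60.3 CPM, Adam17 of 50.5 and 10.6 CPM and Adam19 of 0.316 and 5.62 CPM in the 8-cell and 12-cell BRP blocks, with overlapping ranges. In F7, Adam10 was 1402 CPM. Of the inhibitors, Errfi1, which binds the kinase domain of Egfr, had medians of 11.7 and 67.0 CPM, and Rnf41, a ubiquitin ligase of Erbb3, of 69.5 and 58.3 CPM. Among the adaptors and kinases, Gab1 had a median of 109 CPM in the 8-cell BRP block and was at 0 in 8 of the 12 cells of the other, with its highest values there in BRP529 (67.0 CPM) and BRP528 (21.96 CPM). Mapk3, a kinase downstream of these receptors, had medians of 15.7 and 0.588 CPM. Dlg4, the postsynaptic scaffold that binds Erbb4, was 3.10 to 14.9 CPM in the 8-cell BRP block and 7.12 to 140 CPM in the 12-cell BRP block.

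In the F block most of these genes were at or near 0 in most cells, and the F cells also had the fewest genes read. Pik3ca had counts in all 8 F cells with a median of 100.5 CPM. Single F cells held high levels of single genes, such as Tmeff1 at 2254 CPM in F1.

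**Figure D4:**
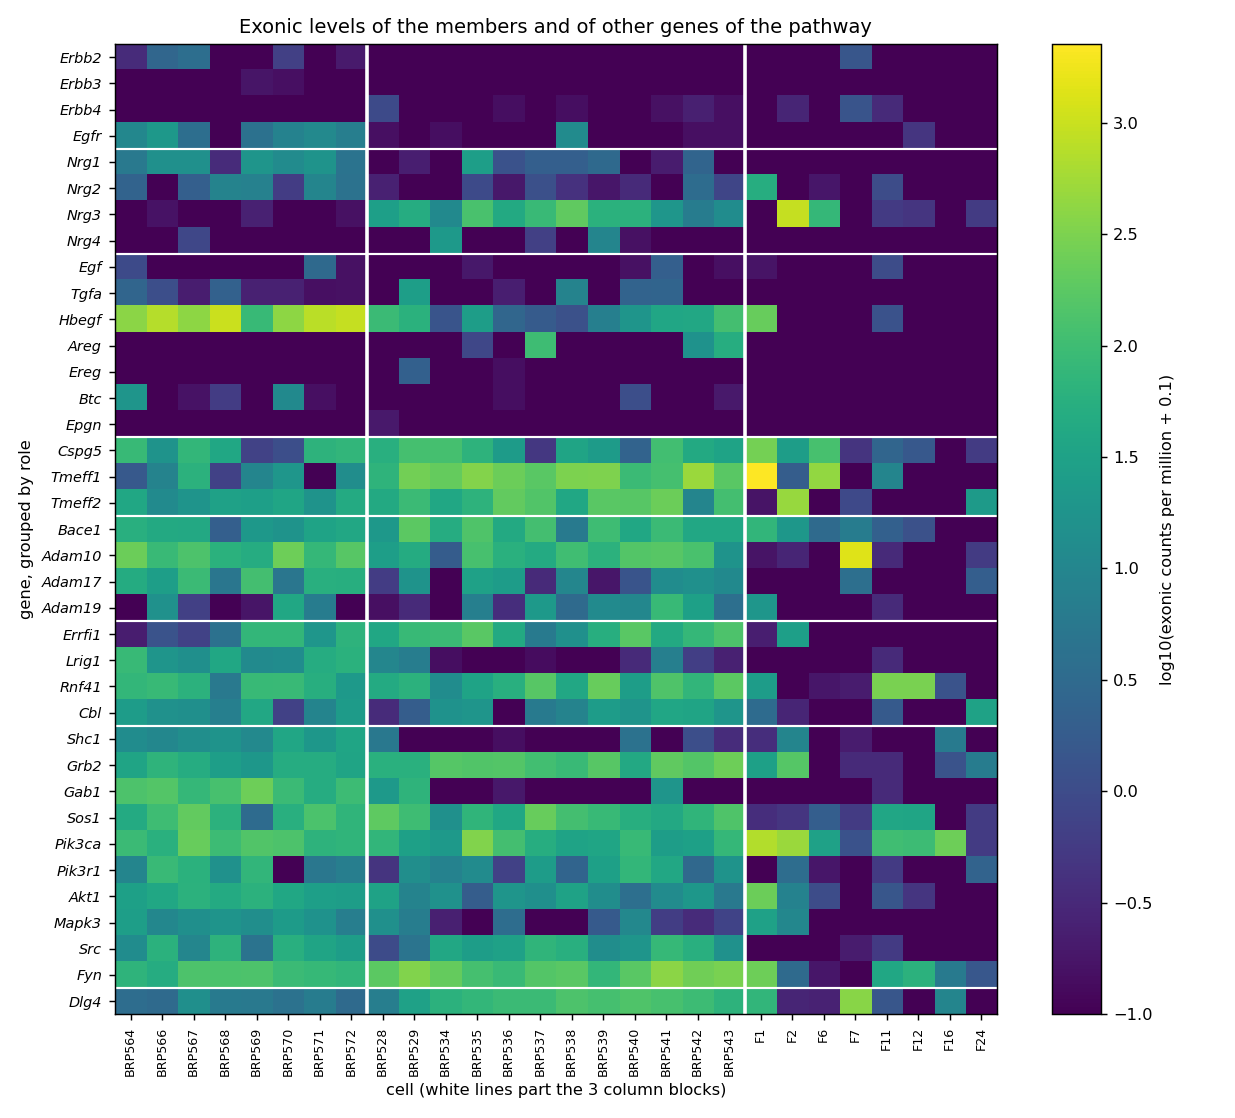
Exonic level of the 8 members and of 29 of the 31 other genes of the pathway (rows, grouped by role) in each of the 28 cells (columns, with white lines between the 3 blocks), coloured by log10(exonic CPM + 0.1). Egfr, Hbegf, Lrig1, Shc1 and Gab1 are bright in the 8-cell BRP block, Nrg3 and Tmeff1 in the 12-cell BRP block, and most rows are dark in the F cells.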

How the data were processed

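RNA of 28 single mouse cells was analysed. The authors deposited raw counts per gene and cell, 1 table for exons and 1 for introns. The submitters' processing notes name bcl2fastq 2.17, STAR 2.4.0 and the build mm10. The counting tool, annotation, strand setting and filters are not given in the sources used here. The labels give a TruSeq Nano kit for cultured cells and a stranded TruSeq kit for slice interneurons.

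All 28 columns matched no sample label and were read as cells of 1 pooled set, so no p-value is given. Counts were divided by the cell's exonic or intronic total and multiplied by 1000000. Positions and lengths come from GENCODE M21 on GRCm38. A gene entered a count of blocks that do not overlap with at least 10 counts in at least 3 of the cells compared. Thinning drew 800000 exonic counts per cell without replacement. Shares have Wilson 95% intervals. Named genes are the 8 members, the 31 pathway genes (values of 2 are not reported here), the 40 cell type markers and, for members with 10 exonic counts in 8 cells, the 2 genes of highest Spearman's rho. Members, blocks and lists were chosen with earlier results of these data known. Other scalings used edgeR 4.0.16 and DESeq2 1.42.0 in R 4.3.3. Python 3.11.15, numpy 2.4.6, pandas 2.3.3, scipy 1.17.1 and matplotlib 3.10.9 were used, and the call of blocks that do not overlap was tested on simulated counts.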

Additional observations from a re-analysis of the deposited data

How the results depend on the processing

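Medians over the 28 cells, numbers of cells with a count, intronic shares and the order of the members were recomputed under other settings, and none of them comes from a test. Exonic medians moved by less than their 95% order-statistic interval with TMM or DESeq2 size factors and without F12 or without BRP528, BRP529 and F7, alternatives chosen after seeing the data. The medians of Erbb2, Erbb3, Erbb4, Egfr and Nrg4 were 0, so rescaling could not move them. The interval is wide, from rank 9 to rank 20 of the 28 cells, so this check could hardly fail. When exonic and intronic counts were added and scaled to both totals, the medians became 0.0198 CPM for Erbb2, 0.0970 for Erbb3, 114 for Erbb4, 1.66 for Egfr, 3.28 for Nrg1, 3.36 for Nrg2, 344 for Nrg3 and 1.51 for Nrg4. Intronic counts scaled to both totals gave 0.0970 for Erbb3, 114 for Erbb4, 2.44 for Nrg1, 2.36 for Nrg2, 338 for Nrg3 and 1.51 for Nrg4, lower because the divisor is larger. With at least 10 exonic counts asked of a cell, Erbb3 was read in 0 cells, Erbb4 in 2, Nrg2 in 12 and Nrg3 in 14, in place of 2, 9, 19 and 20. After thinning, the numbers were 2 for Erbb2, 0 for Erbb3, 1 for Erbb4 and 11 for Nrg2. With exonic or intronic counts they were 14 for Erbb2, 22 for Erbb3, 28 for Erbb4, 25 for Egfr, 26 for Nrg1, 28 for Nrg2, 28 for Nrg3 and 26 for Nrg4. The median intronic share over cells was 0% for Erbb2, 100% for Erbb3, 100% for Erbb4, 95.0% for Egfr, 82.5% for Nrg1, 92.9% for Nrg2, 99.1% for Nrg3 and 100% for Nrg4, and without F7 the pooled share was 96.2% for Erbb3, 99.9916% for Erbb4 and 96.3% for Nrg3. By the sum over cells rather than the median, Egfr ranked 4, Nrg4 5, Erbb4 7 and Erbb3 8, since these and Erbb2 all have a median of 0. Leaving out 1 cell at a time moved the exonic median of Nrg3 between 0.473 and 6.62 CPM that of Nrg1 between 0.134 and 0.243 CPM and the intronic median of Nrg1 between 5.72 and 21.1 CPM; a median over all 28 cells can fall between the blocks, and the text above uses block values. No paired analysis was possible because the columns carry no replicate numbers and no test was made. Depth limits the members with few exonic counts, Erbb2, Erbb3, Erbb4 and Nrg4, most in the F cells.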

Other observations

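The other 3 genes whose intronic levels did not overlap between the F block and the 12-cell BRP block were Acacb, Izumo1 and Sepsecs, named here after their values were seen. Acacb, an acetyl-CoA carboxylase, was 155 to 3954 CPM in the F block and 0.613 to 17.3 CPM in the 12-cell BRP block. Izumo1, a sperm protein needed for fusion with the egg, was 47.2 to 894 CPM and 0 to 5.76 CPM. Sepsecs, an enzyme of selenocysteine synthesis, was 2.78 to 146 CPM and 0 to 1.18 CPM. None of them is a member of the neuregulin pathway as listed here.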
